A study of Mus musculus with 4 samples.

Results

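The Zfp genes of the mouse are described here in primary microglia, the resident macrophages of the brain, with and without lipopolysaccharide (LPS), the Gram-negative bacterial cell wall component that Tlr4 senses. Members were genes whose symbol is Zfp followed by a digit and whose mean count over the 4 libraries was at least 10, without the RNA decay genes Zfp36, Zfp36l1 and Zfp36l2. They numbered 255 of 24148 genes in the table, and 9548 genes of any kind reached the same mean count. Another 129 Zfp genes lay below it, 27 of them with no count, so the 255 are the measurable members and not the whole family. The members were chosen by symbol and by this measured mean count. Just above the limit lay Zfp992 with a mean of 10.0 counts and Zfp784 with 10.25, and just below it Zfp345 and Zfp551, each with 9.75. The 2 control libraries came from untreated microglia and the 2 LPS libraries from microglia given 10 ng/ml for 4 h. All 4 came from cells shaken off mixed glial cultures, and no strain, age or genotype is stated for them. The labels do not tie the replicates to separate animals or cultures, so the p-values describe spread among libraries that could be technical.

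Most Zfp genes encode proteins with C2H2 zinc fingers, short loops held by a zinc ion that read DNA bases, usually many in a row. A large share of them also carry a KRAB domain, which recruits the corepressor Trim28 and, through it, histone methylation and heterochromatin proteins. KRAB zinc finger genes are known for silencing transposable elements, and many sit in tandem clusters in the genome. Other Zfp genes have no KRAB domain and include promoter-binding activators, RNA-binding proteins and ubiquitin ligases.

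Across the 4 libraries the table held between 3617176 and 5095630 counts, and the members' share of them was 0.664% and 0.946% in the controls, against 0.484% and 0.548% after LPS. These are shares of unscaled totals, so the drop is not particular to Zfp genes. Scaled by total counts, all genes tested had a median log2 fold change of -0.48, beside -0.05 with TMM, the scaling used below. The cytokine gene Il6, a check of the stimulus, rose from 4 and 8 counts in the controls to 4655 and 3584 after LPS. Of 10 microglia markers, 8 were tested, Itgam was at 0 in every library, and their summed level was 3232 and 2470 CPM (counts scaled to library size by TMM) in control and 2067 and 1751 CPM in LPS. Summed oligodendrocyte lineage markers, 7 of 9 tested, had 407 and 417 CPM in the libraries numbered 1 and 69.0 and 60.9 CPM in those numbered 2. Summed astrocyte markers, 7 of 8 tested, had 115 and 131 CPM in the libraries numbered 1 and 312 and 443 CPM in those numbered 2. Within the astrocyte list S100b went the other way, with 37.3 and 39.4 CPM in the libraries numbered 1 and 2.71 and 2.66 CPM in those numbered 2. The other tested astrocyte markers were higher in number 2 of both groups. The sums of these 2 marker lists moved with the replicate number, and other sums did too. The microglia sum given above was lower in number 2 of both groups. Summed fibroblast markers had 26.0 and 39.2 CPM in the libraries numbered 1 and 41.7 and 64.8 CPM in those numbered 2. Summed endothelium markers had 15.6 and 17.1 against 21.9 and 22.2 CPM. Neuron, lymphocyte and neutrophil sums did not move the same way in both groups. The part of these marker lists in the Zfp results was not tested.

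With edgeR's quasi-likelihood test and Benjamini-Hochberg adjustment over all 9548 genes, 3 of the 255 Zfp genes were called at an adjusted p under 0.05. Zfp800 and Zfp263 rose and Zfp791 fell. That is 1.18% of members, beside 8.34% of all genes tested; 6.55% of all genes were called higher and 1.79% lower. In bulk RNA, fewer cells of a type and less RNA per cell cannot be told apart. The sequences of the 250 bases before a RefSeq transcript start of these 3 genes, the outermost one listed, are shown because they are the members with a call. They are from RefSeq (GRCm38.p6), read on the strand of the gene, with matches to any of 8 searched motifs in capitals.
Zfp800: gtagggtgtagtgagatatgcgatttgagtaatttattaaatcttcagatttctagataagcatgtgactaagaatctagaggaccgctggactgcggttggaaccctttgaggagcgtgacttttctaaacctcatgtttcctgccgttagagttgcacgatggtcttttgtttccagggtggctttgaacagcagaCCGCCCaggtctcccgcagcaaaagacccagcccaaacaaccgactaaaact
Zfp263: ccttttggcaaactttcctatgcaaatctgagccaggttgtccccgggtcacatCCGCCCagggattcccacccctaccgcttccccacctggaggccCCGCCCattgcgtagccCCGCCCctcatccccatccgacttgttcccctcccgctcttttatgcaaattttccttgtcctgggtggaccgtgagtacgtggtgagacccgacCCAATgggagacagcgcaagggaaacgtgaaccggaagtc
Zfp791: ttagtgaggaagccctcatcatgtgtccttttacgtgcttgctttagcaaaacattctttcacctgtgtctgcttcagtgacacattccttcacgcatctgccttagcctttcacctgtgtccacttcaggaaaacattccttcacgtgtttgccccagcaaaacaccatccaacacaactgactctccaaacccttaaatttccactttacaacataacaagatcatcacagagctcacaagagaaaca
The windows lie at chr6:28398006-28398255 (minus strand, overlapping the outer end of the gene's RefSeq span), chr16:3743849-3744098 (plus strand) and chr8:85123096-85123345 (minus strand). The motifs were the kB site, AP-1 (TGANTCA), CRE (TGACGTCA), a CRE core (TGACG, which lies inside CRE), the ISRE core (GAAA, NN, GAAA), the GC box (GGGCGG), the CCAAT box (CCAAT) and the YY1 core (AANATGG), each on both strands. Zfp800 had 1 GC box, beginning 52 bases before the start. Zfp263 had 3 GC boxes, beginning 196, 152 and 135 bases before the start, and 1 CCAAT box at 40 bases. The Zfp791 window held none of these letters, and its CG dinucleotides numbered 3, beside 9 for Zfp800 and 14 for Zfp263.

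Zfp800, at chr6:28210548-28398033, encodes a C2H2 protein studied in gut and pancreatic endocrine cells. Its controls held 212 and 248 counts and its LPS libraries 1176 and 880, or 56.1 and 48.1 CPM against 283 and 213 CPM. Both LPS libraries lay far above both controls, and the level was 4.76-fold higher (log2 fold change 2.25 ± 0.24 SE, edgeR adjusted p = 0.0051). Zfp263, at chr16:3744099-3750790, encodes a DNA-binding factor with 134 and 219 control counts against 556 and 469 after LPS, or 35.5 and 42.4 against 134 and 113 CPM. The groups did not overlap, with 3.17-fold more in LPS (log2 1.66 ± 0.22, edgeR adjusted p = 0.011). Without LPS replicate 1 its edgeR adjusted p was 0.077 at a log2 fold change of 1.54; it was called in each other setting, and the smallest adjusted p without a block was 1.3e-05, from DESeq2. Zfp791, at chr8:85107168-85123095, encodes a KRAB zinc finger protein with only 31 and 29 control counts against 4 and 6 after LPS. Its level was 5.59-fold lower (log2 -2.48 ± 0.49, edgeR adjusted p = 0.038), on the smallest counts of the called genes. That call was lost without control replicate 1 (edgeR adjusted p = 0.10), LPS replicate 1 (0.22) or LPS replicate 2 (0.13), and the range over settings without a block was 0.017 to 0.22.

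The most abundant member was Zfp488, known as a partner of Olig2 in oligodendrocyte differentiation, at chr14:33967070-33979034. Its controls held 4254 and 6670 counts and its LPS libraries 2893 and 2423, or 1127 and 1292 against 696 and 586 CPM. Both LPS libraries were below both controls, but the log2 fold change of -0.92 ± 0.20 had an edgeR adjusted p of 0.0501 and was not called. With DESeq2 the adjusted p was 0.025, and over all settings without a replicate block it ran from 0.0084 to 0.33. The part of the oligodendrocyte markers listed above in this result was not tested. Per kilobase of transcript its mean level over the 4 libraries was 215 CPM, and the next were Zfp277 with 65.7, Zfp330 with 43.9 and Zfp800 with 34.8 CPM per kilobase. In the LPS libraries alone Zfp800, with 65.6 and 49.3, was above Zfp277, with 47.8 and 44.1 CPM per kilobase. Zfp277, a factor linked to repression of the Cdkn2a locus, had 171 and 245 CPM in control and 116 and 108 CPM in LPS (log2 -0.90 ± 0.24, edgeR adjusted p = 0.096, but 0.028 without control replicate 1; 0.022 to 0.37 over settings without a block). Zfp704 had 154 and 144 CPM in control and 62.8 and 83.9 CPM in LPS (log2 -1.03 ± 0.23, edgeR adjusted p = 0.055; DESeq2 adjusted p = 0.026; 0.018 to 0.34 over settings without a block). Neither passed the edgeR test, although the groups did not overlap in either gene.

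The other highly counted members differed little between the groups. Zfp148, which binds GC-rich promoters, had 146 and 151 CPM in control and 153 and 161 CPM in LPS. Zfp445, a KRAB protein that maintains genomic imprints, had 145 and 157 against 140 and 165 CPM. Zfp106, an RNA-binding protein needed by motor neurons, had 115 and 123 against 120 and 128 CPM. Their log2 fold changes were 0.08 ± 0.18, 0.01 ± 0.20 and 0.06 ± 0.19, so a change the size of that in Zfp800 was not seen in them. Zfp871 (176 and 203 against 229 and 243 CPM), Zfp706 (114 and 116 against 116 and 95.2 CPM) and Zfp260 (75.5 and 108 against 98.4 and 122 CPM) were not called either.

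**Figure D1:**
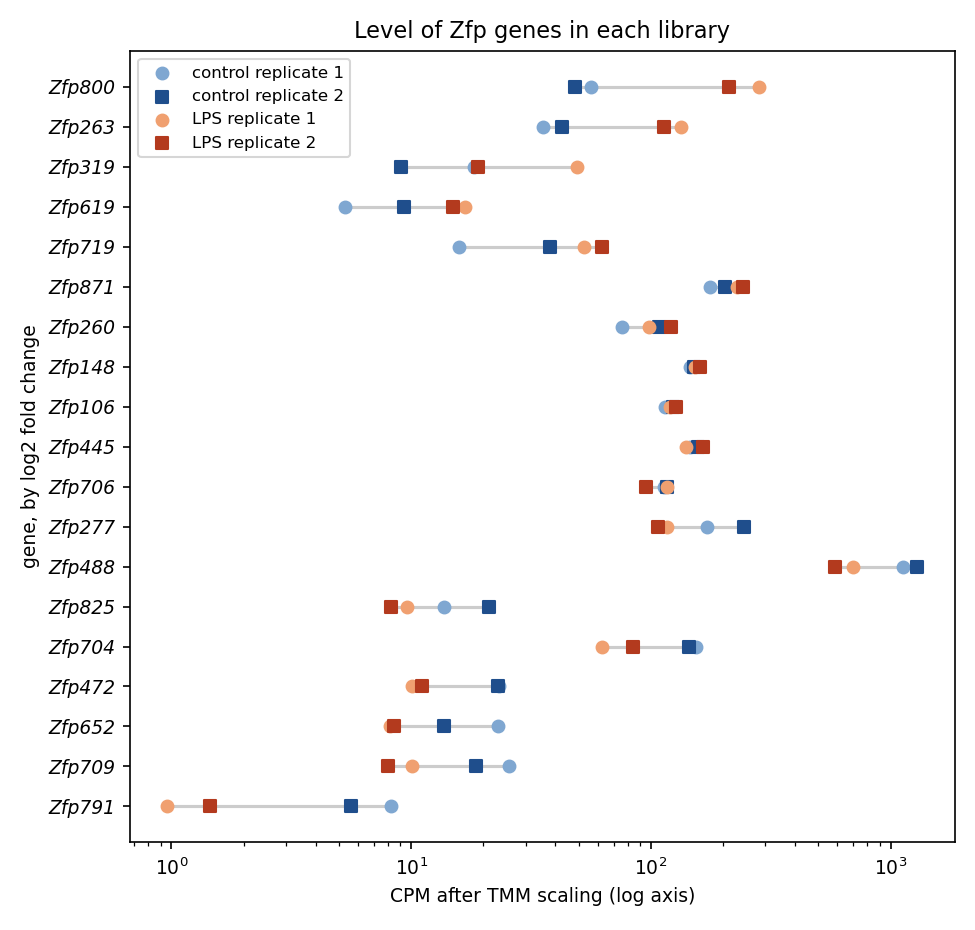
Level of the called, most counted and most changed Zfp genes in each library, in CPM on a log axis, ordered by log2 fold change; circles are replicate 1, squares replicate 2, blue control and orange or red LPS. Zfp800 and Zfp263 have both LPS libraries to the right of both controls and Zfp791 has both to the left.

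Among members with a mean count of at least 50, the largest falls beside Zfp704 were in Zfp709 (97 and 96 control counts against 42 and 33 after LPS), Zfp652 (87 and 71 against 34 and 35), Zfp472 (88 and 119 against 42 and 46) and Zfp825 (52 and 109 against 40 and 34). Zfp709, Zfp472 and Zfp825 have a KRAB match and Zfp652 has none. Their log2 fold changes were -1.29 ± 0.31, -1.14 ± 0.36, -1.13 ± 0.26 and -0.97 ± 0.34, with edgeR adjusted p of 0.074, 0.14, 0.060 and 0.18. None was called, although both LPS libraries lay below both controls in each. On the other side, Zfp319 had 69 and 47 control counts against 205 and 79 after LPS, Zfp619 20 and 48 against 70 and 62, and Zfp719 60 and 195 against 218 and 260. Their log2 fold changes were 1.33 ± 0.56, 1.11 ± 0.37 and 1.09 ± 0.43, and their edgeR adjusted p were 0.26, 0.16 and 0.22. The controls of Zfp719 differed from each other by more than the LPS libraries did, and without control replicate 2 it was called (log2 1.83, edgeR adjusted p = 0.012; 0.012 to 0.49 over settings without a block).

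Taken over all members, the median log2 fold change was -0.30, beside -0.05 for all genes tested, and 190 of 255 (74.5%) were below 0, beside 53.6% of all genes. Both LPS libraries were below both controls in 100 members (39.2%, beside 25.8% of all genes) and above both in 27 (10.6%, beside 24.7%). Most differences were small: 27 members had a log2 fold change below -1 and 8 above 1, where 6.99% and 9.49% of all genes did. These are descriptions with no test. Low counts went with lower values in general. Members under a mean count of 50 had a median of -0.44 and all genes in that range -0.25; from 50 upward the medians were -0.18 and 0.07. Other scalings moved the median of all genes to between -0.03 and -0.60, and the member median stayed 0.25 to 0.26 below it in each of them. Control replicate 2 carried much of the difference. Without it the member median was -0.13 beside -0.03 for all genes, and without control replicate 1 it was -0.45. Both LPS libraries were below the remaining control in 118 members without control replicate 2 (46.3%, beside 38.6% of all genes) and in 170 without control replicate 1 (66.7%, beside 40.8%). Summed over members the level was 6358 and 7482 CPM in control and 5932 and 6077 CPM in LPS, and without Zfp488 it was 5231 and 6190 against 5236 and 5492 CPM, so that the groups overlapped.

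**Figure D2:**
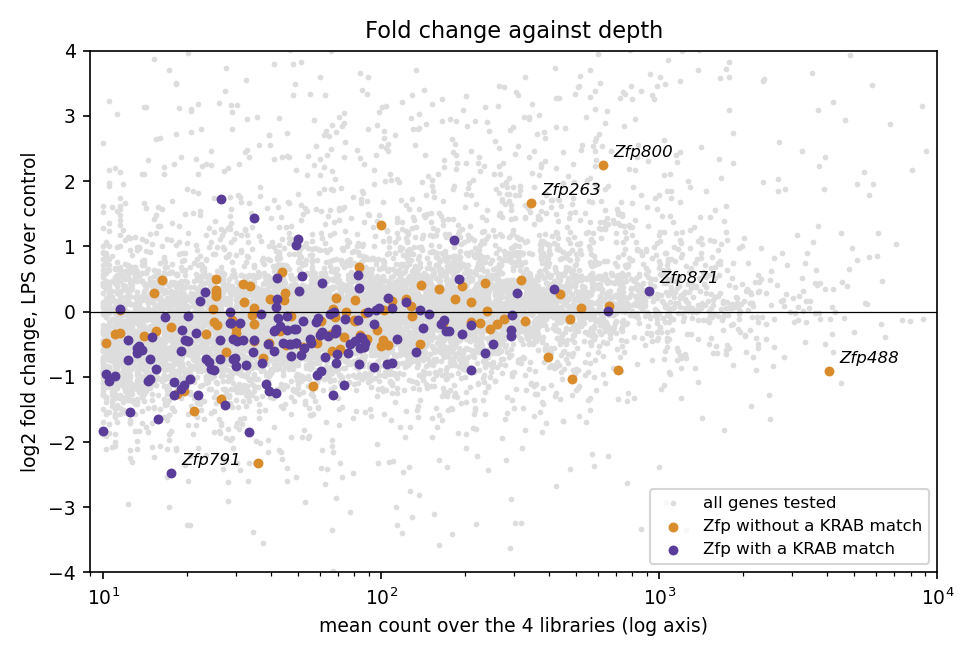
Log2 fold change of LPS over control against the mean count over 4 libraries (log axis) for all genes tested (grey), and for Zfp genes with (purple) and without (orange) a KRAB match; genes beyond the axis limits are not drawn. Most Zfp genes lie below 0, at low counts above all, and Zfp800 and Zfp263 stand above.

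The members were split by whether their protein carries a KRAB domain, read from translated transcripts. A KRAB match was found in 154 members and none in 100; Zfp939 had no transcript to translate. In the KRAB genes the median log2 fold change was -0.43, with 127 below 0, both LPS libraries below both controls in 73 (47.4%, beside 25.8% of all genes) and 1 gene called, the lower Zfp791. In the others the median was -0.14, with 62 below 0, both LPS libraries below both controls in 26 (26.0%, close to the share of all genes) and 2 called, the higher Zfp800 and Zfp263. Calls were thus 0.649% and 2.0% of the classes, beside 8.34% of all genes. The profile can miss a diverged domain, Zfp263 included, so the class of that gene is uncertain. The size of this difference depended on how the domain was found, on the counts and on which libraries entered the fit. A strict sequence pattern for the domain, which was used first, gave 112 KRAB genes with a median of -0.42 and 142 others with -0.24. By that pattern both LPS libraries were below both controls in 47 KRAB genes (41.96%) and 52 others (36.62%). The share of the others was thus above the 25.8% of all genes. Among genes matched by the profile only, 26 (61.9%) had both LPS libraries below both controls. The strict pattern missed KRAB genes known as such. A profile search replaced it after fold changes had been seen, which widened the difference between the medians from -0.17 to -0.29. Without control replicate 2 that difference was -0.09 with the profile, and with the strict pattern it turned to 0.09. Without LPS replicate 1 it was -0.24 with the profile and -0.04 with the strict pattern, and without control replicate 1 it was -0.44 and -0.28. From a mean count of 50 upward, with the profile, it was -0.17; KRAB genes had a median mean count of 48.1 and the others 67.

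By library, KRAB genes varied with the replicate number as well as with treatment. The median distance of KRAB genes from their own mean over libraries, on the log2 CPM scale, was -0.01 and 0.38 in the controls numbered 1 and 2, against -0.27 and -0.07 in the LPS libraries so numbered. In the genes without a match it was 0.04, 0.08, -0.06 and -0.03. KRAB genes were thus highest in control replicate 2, and within each number the LPS library was below the control. In 101 of the KRAB genes (65.6%) the LPS library was below the control of the same number in both numbers, beside 39.7% of all genes tested. The median log2 ratio of replicate 2 to replicate 1 was 0.39 in control and 0.17 in LPS for KRAB genes, 0.25 and 0.12 for all members, and 0.01 and -0.04 for all genes tested, so KRAB genes were higher in the library numbered 2 of both groups. Both LPS libraries were below control replicate 1 in 77 of the 154 KRAB genes, beside 38.6% of all genes, and below control replicate 2 in 124 of them, beside 40.8%.

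**Figure D3:**
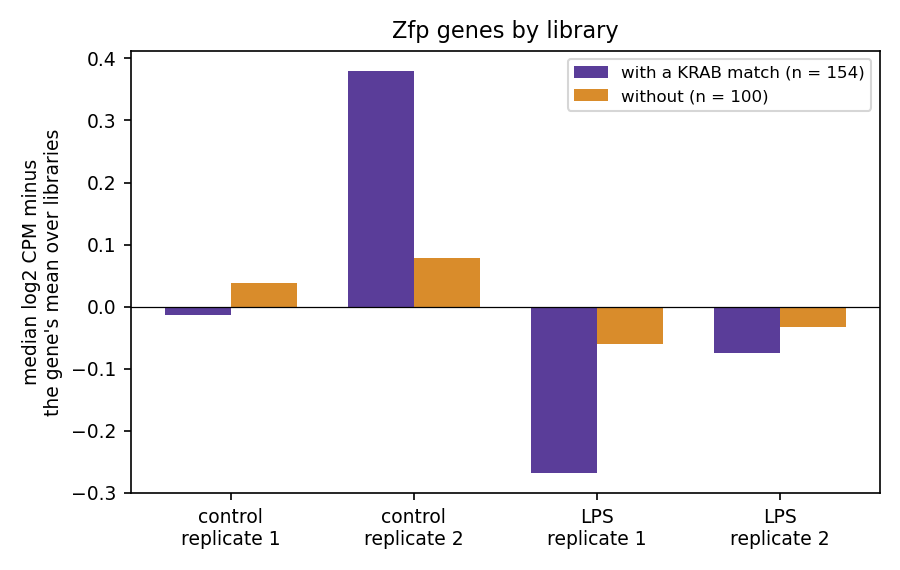
Median over Zfp genes of the log2 CPM minus the gene's own mean over 4 libraries, for 154 genes with a KRAB match (purple) and 100 without (orange), by library; bars start at 0. The KRAB bar is highest in control replicate 2 at 0.38, while control replicate 1 is at -0.01.

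**Figure D4:**
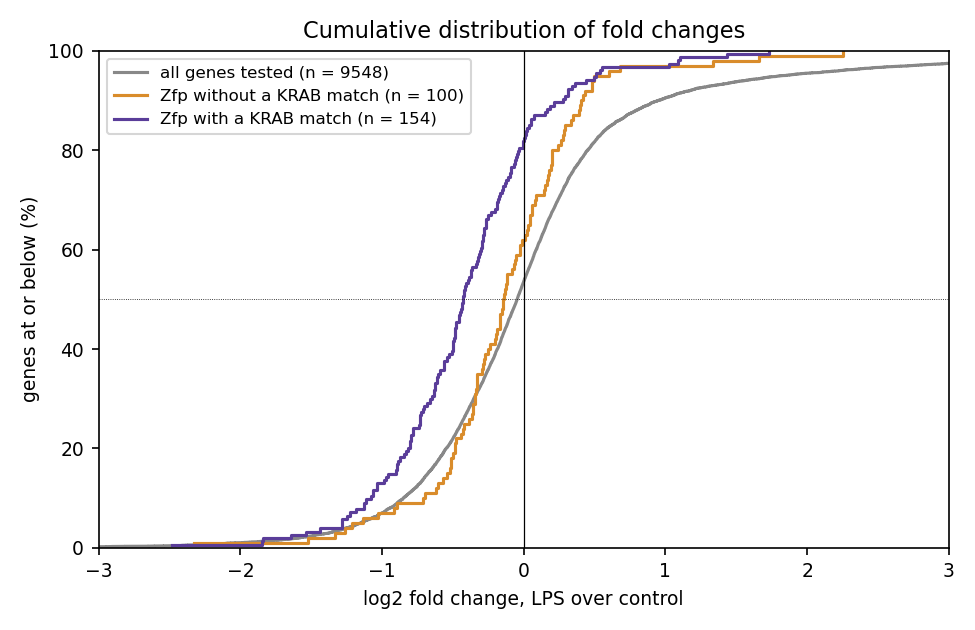
Cumulative share of genes, in percent, at or below each log2 fold change of LPS over control, for all genes tested (grey) and Zfp genes with (purple) and without (orange) a KRAB match; the axis stops at 3 in both directions. Over most of its range the KRAB curve lies left of the others, with a median of -0.43, in the fit of all 4 libraries.

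The number of C2H2 pattern matches did not order the fold changes. The pattern fixes the spacing between the cysteines and the histidines, so it can count too few fingers. Zfp143, for example, had 1 match but 4 matches to the short sequence that joins fingers. At least 1 C2H2 pattern was found in 246 of the 254 translated members, with a median of 11 and at most 33. Members with 0 to 4 patterns had a median log2 fold change of -0.18, those with 5 to 9 -0.33, those with 10 to 14 -0.32 and those with 15 or more -0.28. The 8 members without a pattern were Zfp395, Zfp704, Zfp608, Zfp365, Zfp609, Zfp503, Zfp330 and Zfp781. For Zfp781 the translated frame was not the annotated coding sequence, so its lack of a pattern and of a KRAB match is uncertain. KRAB genes had a median of 12 patterns and the others 7.

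Members lay in 8 clusters of 5 or more genes, 86 in all, when starts within 500 kb of each other were joined. The largest, at chr13:67038594-67827000 (RefSeq, GRCm38.p6), held 22 genes, all with a KRAB match. Its median log2 fold change was -0.38, and 19 of the 22 were below 0. The cluster at chr17:21008941-22456689 held 19 KRAB genes with a median of -0.29 and 15 below 0. In the 6 KRAB genes at chr7:24132372-24303840, Zfp235 to Zfp61, all were below 0 and the median was -0.80, at a median mean count of only 21. The 9 genes at chr7:127233061-127885996, of which 3 have a KRAB match, had a median of -0.06. Zfp382, on chromosome 7 between Zfp260 and Zfp146, was singled out after its values were seen: it had 10 and 16 control counts against 44 and 36 after LPS (log2 1.73 ± 0.37, edgeR adjusted p = 0.0505), against a cluster median of -0.26. Near-identical copies are uncertain because it is not known how reads were shared between them. Zfp729a had 52.4 and 77.5 CPM in control and 40.4 and 43.7 CPM in LPS, and its copy Zfp729b 54.3 and 79.2 against 48.1 and 46.2 CPM.

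**Figure D5:**
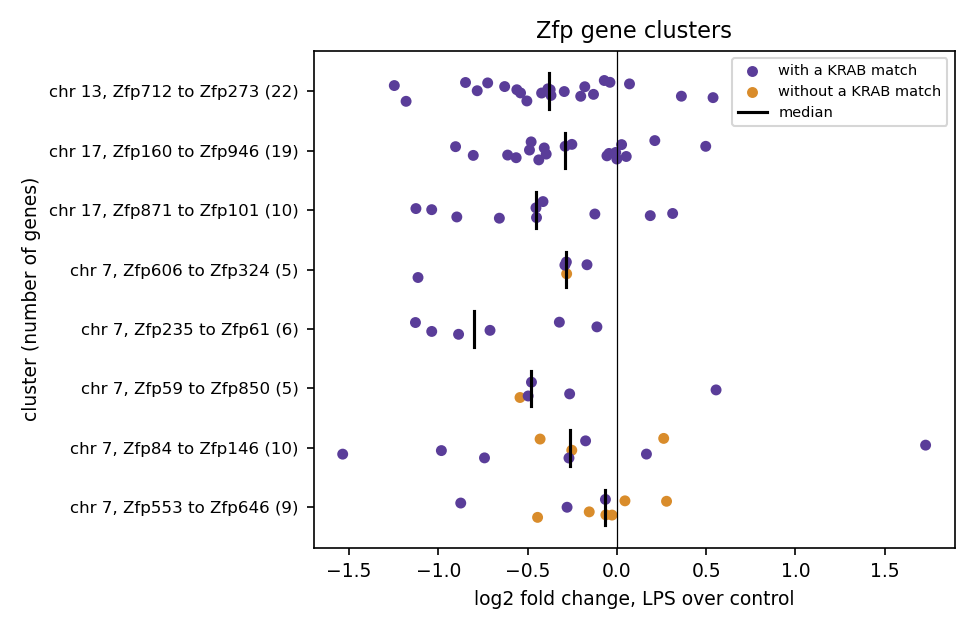
Log2 fold change of LPS over control for the genes of 8 Zfp clusters, 1 point per gene (purple with a KRAB match, orange without) with the median as a black line; points are spread vertically only for legibility. All 8 medians are below 0, from -0.80 to -0.06, and Zfp382 stands at 1.73.

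Members with well known roles had mean counts from 11.5 (Zfp326) to 658 (Zfp148), and apart from Zfp263 none was called. Zfp91, a ubiquitin ligase of the noncanonical NF-kB pathway, had 37.6 and 37.2 CPM in control and 24.1 and 28.8 CPM in LPS (log2 -0.50 ± 0.23, edgeR adjusted p = 0.30). Zfp598, the ligase that marks collided ribosomes, had 39.2 and 18.4 against 49.6 and 26.1 CPM, with the larger difference between the replicate numbers. Zfp131, a BTB domain factor, had 38.1 and 54.4 against 58.5 and 66.9 CPM. Zfp318, which acts in IgD splicing in B cells, had 20.4 and 19.0 against 16.8 and 18.8 CPM. Zfp644 and Zfp462, partners of the H3K9 methyltransferases G9a and GLP, had log2 fold changes of -0.17 ± 0.24 and -0.01 ± 0.28. Zfp809, which silences retroviruses through their primer-binding site, had only 15 and 19 control counts against 13 and 8 after LPS. Zfp932, a KRAB repressor of endogenous retroviruses, had 66 and 144 control counts against 65 and 101 after LPS, with both groups higher in the libraries numbered 2. Zfp281, Zfp384, Zfp217, Zfp410, Zfp57, Zfp568, Zfp386 and Zfp703 were under the minimum, and each has more than 1 accession in the table.

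Promoter windows of 216 members, 253 in all, were set beside 32851 windows of the same length from RefSeq. A CCAAT box was in 47.4% of member windows and 33.8% of all windows, a GC box in 39.9% and 32.7%, and a CRE core in 28.1% and 17.8%. The kB site was in 7.11% and 7.25%, AP-1 in 1.58% and 6.75%, CRE in 3.16% and 1.55%, the ISRE core in 1.58% and 2.98% and the YY1 core in 13.4% and 12.4%. Windows of KRAB genes held a CCAAT box in 54.5% and a GC box in 27.9%, and those of the other members in 35.1% and 57.7%. These shares describe letters and not bound sites. The median number of CG dinucleotides was 8 in KRAB windows and 16 in the others.

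The 3 CCCH genes that the symbol rule leaves out act on mRNA decay and are given for contrast. Zfp36 had 46.6 and 22.1 CPM in control and 128 and 84.8 CPM in LPS (log2 1.64 ± 0.42, edgeR adjusted p = 0.084). Zfp36l1 had 124 and 32.4 against 20.4 and 22.0 CPM, and Zfp36l2 103 and 38.9 against 25.7 and 13.0 CPM. Their log2 fold changes were -1.87 ± 0.62 and -1.87 ± 0.56, and neither was called.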

How the data were processed

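Per the labels' protocols, the libraries were depleted of ribosomal RNA, strand-specific and read from both ends. The authors deposited whole-number counts for 32915 RefSeq accessions, 1 column per library; the deposited table calls itself normalized, no rescaling is stated in the sources used here, and the values were treated as counts. Build mm10 is named in the submitters' processing notes, with the tools HTSeq 0.6.1, TopHat2 2.0.10, Cufflinks 2.2.1, Trimmomatic 0.33 and CASAVA 1.8.2. Counting mode and strand setting: not given in the sources used here. Antisense or overlapping genes may therefore share reads.

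Accessions were matched to symbols with RefSeq tables of GRCm38.p6 (32487) and GENCODE M21 metadata (187), with 241 unmatched, and summed per gene. Of the members, 12 have more than 1 accession; of the Zfp genes under the minimum, 75 do. Genes reaching a mean count of 10 were tested with edgeR 4.0.16 (R 4.3.3, TMM scaling, quasi-likelihood test, two-sided, Benjamini-Hochberg over 9548 genes, threshold 0.05), with both groups of 2 libraries in 1 fit and no block. The SE is the size of the log2 fold change divided by the square root of F. TMM factors were 1.05 and 1.28 in control and 0.820 and 0.906 in LPS. limma 3.58.1 and DESeq2 1.42.0 served as alternatives.

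Members and gene lists were chosen with earlier results of these data known. Named genes are every called member, the 10 with the highest mean count, the 5 largest rises and falls from a mean count of 50, the members next to the limit, and a list of known roles. Proteins were translated from the longest reading frame of GENCODE M21 transcripts (254 members; 249 equal the annotated coding sequence), since no protein table was used here. A KRAB domain was first sought with a strict pattern of its A box. That missed known KRAB genes, so a profile built with pyhmmer from 157 Zfp windows matching the pattern (E-value under 0.0001) replaced it after fold changes had been seen; both are given. A diverged domain can still be missed. The 8 motifs and the 500 kb limit for clusters were also chosen after the data were seen.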

Additional observations from a re-analysis of the deposited data

How the results depend on the processing

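Zfp800 was called in 15 of 15 settings, Zfp263 in 14 of 15 and Zfp791 in 11 of the 14 in which it was tested; their directions held in each. Some members not called in the main fit were called lower in other settings. Zfp810 was called with DESeq2 and limma (adjusted p = 0.044 and 0.040), and so was Zfp395 (0.029 and 0.018). Neither changed direction in any setting. The count of Zfp genes called lower was unstable. It was 1 with edgeR and TMM, 5 with DESeq2, 9 with total-count scaling, 7 with upper-quartile scaling, 19 with library sizes without the 10 most abundant genes, 4 with no filter, 5 with a mean count of at least 50, 2 with the largest accession and 3 with limma-trend on log2(count + 1). Called higher were 2, and 4 with no filter. Shares of all genes called in any alternative setting are not given here, so these counts show nothing particular to Zfp genes. The median of all genes also fell, to -0.48 with total-count scaling, -0.28 with upper-quartile scaling and -0.60 without the 10 most abundant genes. Leaving out 1 library at a time gave 1 to 3 higher and 0 to 2 lower; the 0, without LPS replicate 1 in edgeR, stands beside 11 lower at an unadjusted p under 0.05.

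The median log2 fold change of Zfp genes was -0.74, -0.53 and -0.85 under total-count, upper-quartile and without-top-10 scaling, that of KRAB genes -0.86, -0.66 and -0.98, and that of genes without a match -0.57, -0.37 and -0.69; all genes moved with them, to -0.48, -0.28 and -0.60. For genes without a match it was -0.037 with no filter, -0.23 with a mean count of at least 50, -0.21 with limma and -0.24 with the strict KRAB pattern. With no filter, the comparison took in every gene with a count, with a median of -0.18, while the members were still the 255. The members were only 0.02 below all genes in that setting. Leaving out each library gave -0.45 to -0.13 for members, -0.56 to -0.18 for KRAB genes and -0.12 to -0.065 for the others. Leaving out each library gave 118 to 170 members, and 77 to 124 KRAB genes, with the LPS libraries below the controls, where all genes rose from 25.8% to between 38.4% and 40.8%; these and the strict pattern were chosen after seeing the data. Of 41 named genes 21, and of 255 members 121, changed sign in at least 1 of 14 alternatives; none of these was a called gene. The cause was not tested.

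A replicate block, using the number in the labels, called 12 Zfp genes higher and 47 lower. The share of all genes called under the block is not given here, so these counts are not read as particular to Zfp genes. The labels give only a shared number and there are only 2 pairs, so it stays an alternative. Deviations of same-numbered libraries correlated at 0.66 over all genes and 0.45 over members. Within number 1 and number 2 the medians were -0.17 and -0.34 for members, -0.21 and -0.45 for KRAB genes and -0.02 and -0.03 for all genes. With 2 libraries a group and a median member mean count of 51.25, modest changes could go uncalled.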

Other observations

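Other zinc finger families were read from the same fit. Of 14 tested Zc3h and Rc3h genes, 3 rose, with edgeR's quasi-likelihood test and Benjamini-Hochberg adjustment, beside 6.55% of all genes called higher, and the median log2 fold change was 0.10. Zc3h12c had 48.2 and 46.3 CPM in control and 688 and 541 CPM in LPS, and Zc3h12a, an endonuclease for cytokine mRNA, had 27.0 and 15.9 against 269 and 165 CPM (log2 3.70 ± 0.23 and 3.34 ± 0.39). Rc3h1, which encodes the mRNA decay factor Roquin, had 123 and 121 against 233 and 217 CPM (log2 0.88 ± 0.18, edgeR adjusted p = 0.045).

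Of 27 tested Zbtb genes, 2 fell with edgeR, 2 with DESeq2 and 1 with limma, beside 1.79% of all genes called lower with edgeR, and the median was -0.27. Zbtb4, a methyl-CpG-binding repressor, had 111 and 84.7 CPM in control and 33.9 and 32.4 CPM in LPS, and Zbtb38 had 50.6 and 41.3 against 20.9 and 21.7 CPM. The edgeR adjusted p were 0.016 and 0.0498. The 10 tested Zscan and Zkscan genes had a median of -0.43; edgeR called 0, with 2 at an unadjusted p under 0.05, and DESeq2 and limma also called 0.

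Of the corepressor list around Trim28, 15 genes were tested, with a median of -0.05. Setdb1, Cbx5, Tasor, Pphln1, Mta3, Smarcad1, Dnmt1, Uhrf1, Daxx, Resf1, Trim24 and Trim33 were under the minimum and Fam208a was absent. The list is thus measured only in part. Among the 15 tested genes edgeR, DESeq2 and limma each called 0 and had 0 at an unadjusted p under 0.05. Trim28 had 111 and 57.9 CPM in control and 95.7 and 55.6 CPM in LPS, and Chd4, a chromatin remodeller, 446 and 143 against 670 and 270 CPM; both were higher in the libraries numbered 1.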
